A study of Homo sapiens with 20 samples.

Results

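The mitotic kinases described here are 10 genes, PLK1, PLK4, AURKA, AURKB, BUB1, BUB1B, TTK, NEK2, PBK and MASTL, taken by name from the array's platform annotation. All 10 were found, each with 1 transcript cluster, among 18417 genes tested. The cells were LNCaP, an androgen-responsive line established from human prostate cancer, and 20 Affymetrix gene arrays were used to look for transcripts that depend on cell cycle phase under dihydrotestosterone (DHT), a potent androgen.

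In 5 of the 7 groups the cells grew in hormone proficient medium, were arrested by drugs and received DHT at 10 nM over the final 3 h. Early G1 cells (n = 3) had PD-0332991, an inhibitor of CDK4 and CDK6, at 0.5 µM for 24 h. For late G1 (n = 3) the drug was roscovitine, which inhibits several cyclin-dependent kinases, given for 24 h at 5 µg/mL. Early S cells (n = 2) had aphidicolin, which blocks DNA polymerases, at 2 µg/mL for 24 h. Late S (n = 3) was reached with 1 mM hydroxyurea, an inhibitor of ribonucleotide reductase, over 24 h. G2/M cells (n = 3) had aphidicolin at 2 µg/mL for 15 h, a washout, and 9 h of the microtubule poison nocodazole at 50 ng/mL. The remaining groups were not arrested: CDT+DHT (n = 3) spent 72 h in CDT, a medium named only by that abbreviation, and then 3 h with DHT, and CDT (n = 3) spent 72 h in CDT and 3 h with ethanol. No arrest without DHT was analysed here, and an arrest differs from CDT in drug, medium and hormone together, and from CDT+DHT in drug and medium. The phases are those of the labels, and whether replicates came from separate cultures is not stated. The p-values therefore rest on the spread between arrays, which may be technical.

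Mitosis is driven by protein kinases whose transcripts in cycling cells rise in G2 and fall after division. PLK1 acts at mitotic entry, at centrosomes and at kinetochores, and PLK4 starts centriole duplication. AURKA matures centrosomes and builds the spindle, while AURKB, in the chromosomal passenger complex, corrects wrong attachments of chromosomes. BUB1, BUB1B (the BubR1 protein) and TTK (also called MPS1) carry the spindle checkpoint, NEK2 splits centrosomes, PBK is a kinase found in dividing cells, and MASTL (Greatwall) keeps the phosphatase PP2A-B55 inactive during mitosis. Transcription of many such genes is known to depend on a CHR element, bound by the DREAM and MuvB complexes, and on CCAAT boxes, bound by NF-Y.

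RefSeq promoters for GRCh38.p14, of 300 bases each, were at hand for 7 of the 10 genes (PLK1, PLK4, AURKB, BUB1, BUB1B, NEK2 and MASTL), at the first start listed for each gene. A CHR match (TTTGAA or TTCGAA, on either strand) was found in 5 of the 7, PLK1, PLK4, BUB1, BUB1B and MASTL, and in 13.3% of 14239 promoters of the genes tested. A CCAAT match on either strand was found in 4 of the 7, PLK1, AURKB, BUB1 and NEK2, and in 36.3% of those promoters. An E2F core, searched on either strand as TTGGCGC and as TTCCCGC, then as TTCGCGC and finally as TTGCCGC, was found in 0 of the 7 and in 17.5% of those promoters. TTCGAA reads the same on both strands, so the single site in BUB1 matches on each, and none of the matches in these genes overlapped one of another motif. The stretches below, 100 bases each and all before the start, hold such matches in 5 of these genes, read in the direction of the gene with CHR and CCAAT matches in capitals (ATTGG is CCAAT on the other strand). They are shown because PLK1 and AURKB were called between arrests and because BUB1B, BUB1 and NEK2, though less certain, also had their highest mean in G2/M and their lowest in late G1.
PLK1, chr16:23678789-23678888, plus strand: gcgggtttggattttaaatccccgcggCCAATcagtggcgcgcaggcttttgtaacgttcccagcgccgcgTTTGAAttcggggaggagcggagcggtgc
BUB1B, chr15:40160969-40161068, plus strand: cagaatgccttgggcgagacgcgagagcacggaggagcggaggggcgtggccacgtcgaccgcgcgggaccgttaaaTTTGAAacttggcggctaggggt
BUB1, chr2:110678064-110678163, minus strand: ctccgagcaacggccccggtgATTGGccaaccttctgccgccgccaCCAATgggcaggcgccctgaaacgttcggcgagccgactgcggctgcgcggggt
NEK2, chr1:211675622-211675721, minus strand: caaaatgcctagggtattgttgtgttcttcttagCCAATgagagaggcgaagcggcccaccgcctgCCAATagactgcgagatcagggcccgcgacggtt
AURKB, chr17:8210326-8210425, minus strand: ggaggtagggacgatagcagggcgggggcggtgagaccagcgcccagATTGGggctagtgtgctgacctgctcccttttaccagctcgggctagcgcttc

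Counting from the base before the start as -1, the CHR letters lay at -29 to -24 in PLK1 and at -23 to -18 in BUB1B, and past the start, at 2 to 7, in BUB1. PLK1 had its CCAAT match at -73 to -69, upstream of the CHR. NEK2 and AURKB had CCAAT matches but no CHR letters in this window. AURKB has 2 listed starts and PLK4 has 3, and only the first of each was searched. The AURKB stretch lies inside the gene's annotated span (chr17:8204731-8210575), so sequence at its outer end was not covered. A match describes these letters and is not evidence of binding.

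**Figure D1:**
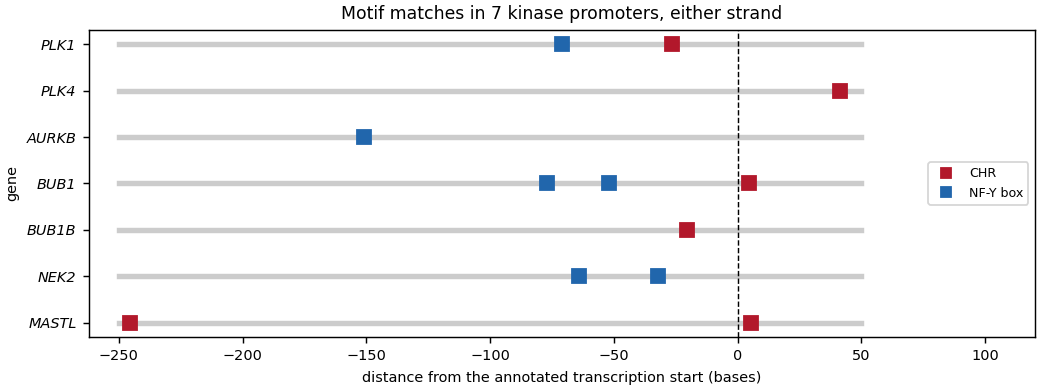
Positions of CHR (red) and CCAAT (blue, marked NF-Y box) matches on either strand in the promoter windows of 7 kinase genes, plotted by distance in bases from the annotated start (dashed line). CHR matches lie within 30 bases before the start in PLK1 and BUB1B, and just past it in BUB1 and MASTL.

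All levels below are log2(intensity + 1) of the gene's cluster, which do not compare between genes, and differences are log2 differences ± SE from 1 limma fit over the 20 arrays, with p-values adjusted by Benjamini-Hochberg over the 18417 genes and a threshold of 0.05. Array medians lay between 2.69 and 3.33 on this scale. PLK1 lay above its array's median on 17 of 20 arrays, AURKA on 16, AURKB on 18, BUB1B on 17, PBK on 13, BUB1 and MASTL on 11 each, NEK2 on 8, and PLK4 and TTK on 4 each. The values of PLK4, TTK and NEK2 were therefore mostly dim, with 5, 6 and 6 arrays below 1. The luminal prostate markers KLK3, KLK2, HOXB13 and STEAP2 were above the array median on all 20 arrays. The 10 basal, stromal and leukocyte markers measured had means of 1.77 to 3.98, KRT5, KRT14, COL1A1, COL1A2, ACTA2 and CD68 being above the median on 14 to 19 arrays and the other 4 on 3 to 10. Their part in the results was not tested.

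Across the whole set the G2/M arrest had the highest kinase transcripts and the late G1 arrest the lowest. The group mean was highest in G2/M for 9 of the 10 genes, PLK4 being highest in early G1. It was lowest in late G1 for 8 of the 10, the exceptions being MASTL (lowest in CDT) and PLK4 (lowest in CDT+DHT). Without the 4 arrays described below, MASTL too was highest in early G1 (5.13, against 4.50 in G2/M). MASTL was then lowest in CDT+DHT (2.63) and PLK4 in late G1 (1.24). Averaged over the 10 genes, the 3 G2/M arrays lay at 5.14, 5.15 and 5.38, above each of the other 17 arrays, and the 3 late G1 arrays at 1.92, 2.01 and 1.53, below each of the others. The kinase mean was 3.84 ± 1.36 in early G1 (SD, n = 3), 4.14 ± 0.68 in early S (n = 2), 3.54 ± 1.24 in late S (n = 3), 3.01 ± 0.57 in CDT+DHT (n = 3) and 3.21 ± 0.82 in CDT (n = 3), so these 5 groups overlapped. In whole-culture RNA, fewer cells with a transcript and less of it per cell cannot be told apart.

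**Figure D2:**
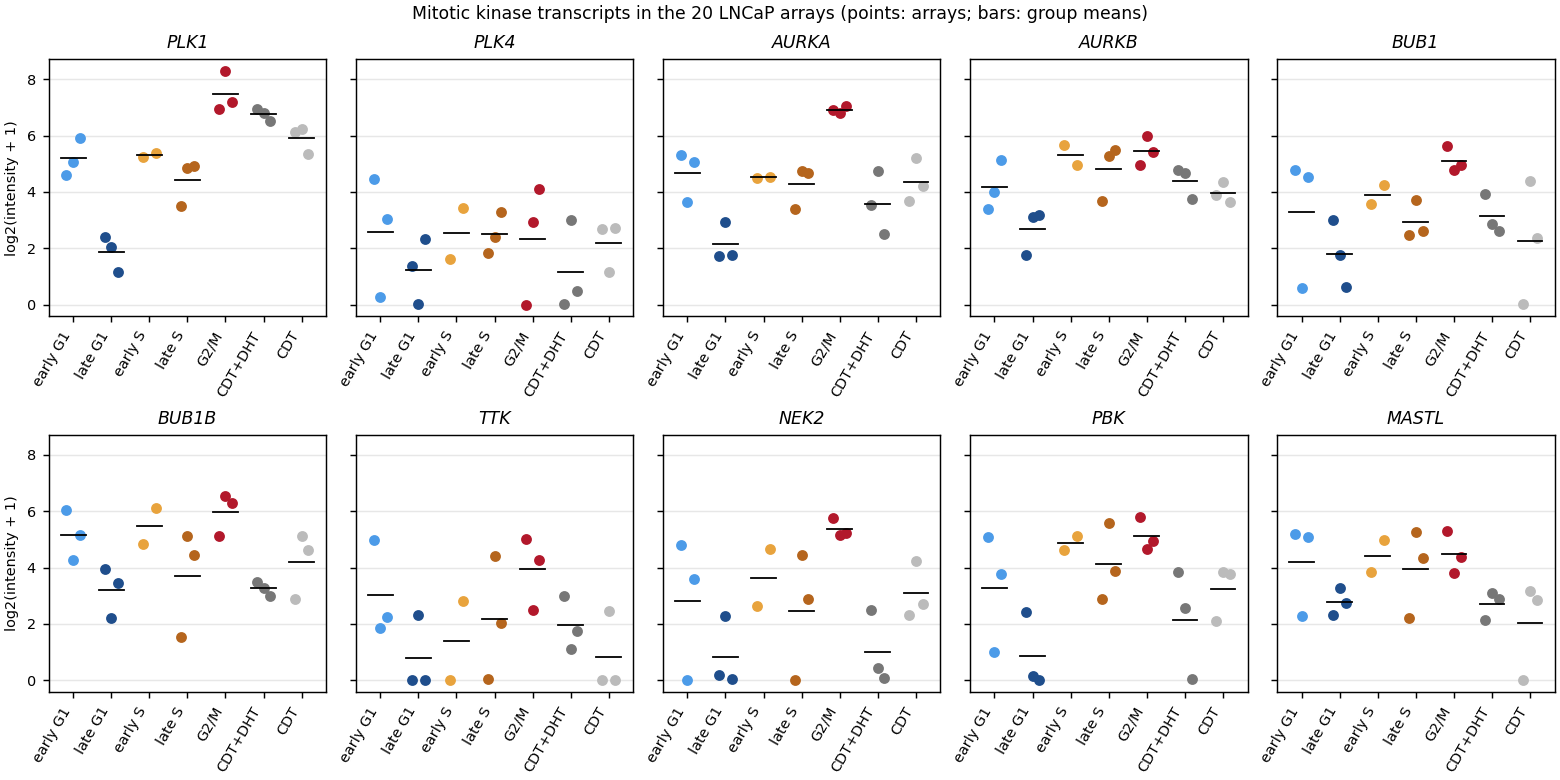
Level of each kinase gene, log2(intensity + 1), in every array (points) with group means (black bars), for the 5 arrests followed by CDT+DHT and CDT. G2/M holds the highest mean in every panel but PLK4, and late G1 the lowest in every panel but PLK4 and MASTL.

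Within groups, 4 arrays stood apart at the high end of an axis of variation. On the main axis of variation inside groups, over the 9208 genes brighter than the median gene (43.8% of the within-group variance), late S replicate 1 (score 0.45), early G1 replicate 2 (0.37), CDT replicate 1 (0.36) and CDT+DHT replicate 3 (0.26) had the highest scores. These arrays also had the lowest kinase means of their groups: 2.16 in late S replicate 1, against 3.86 and 4.58 in the other late S arrays, 2.30 in early G1 replicate 2, against 4.36 and 4.86, 2.37 in CDT+DHT replicate 3, against 3.26 and 3.42, and 2.37 in CDT replicate 1, against 3.23 and 4.02. The 3 late G1 arrays, whose kinase means were lower still, had scores of -0.10, 0.06 and 0.05, and the 3 G2/M arrays scores of 0.03, -0.09 and 0.06. Scores were taken after each group's mean was removed, so they cannot show how groups differ along this axis. At the low end of the axis, late S replicate 2 (-0.42), CDT replicate 2 (-0.26) and early G1 replicate 1 (-0.24) had the highest kinase means of their groups. They were kept, so leaving out the 4 arrays removed low kinase means only. The part of this axis in the kinase differences was not tested, and the main counts are given with and without the 4 arrays.

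**Figure D3:**
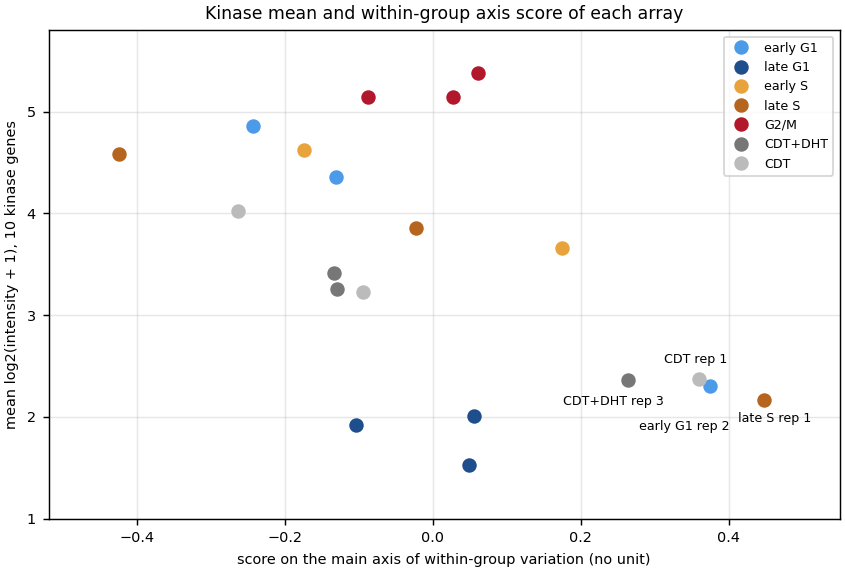
Mean log2(intensity + 1) of the 10 kinase genes in each array against the array's score on the main axis of within-group variation, coloured by group. The 4 arrays named on the plot score between 0.26 and 0.45 with kinase means of 2.16 to 2.37, while the late G1 and G2/M arrays lie at the bottom and top with scores near 0. Scores are taken with each group's mean removed, so a group's place on the axis is not shown.

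PLK1 had the clearest change. Its level was 2.40, 2.03 and 1.16 in late G1, against 4.60, 5.07 and 5.92 in early G1, 5.24 and 5.38 in early S, 3.52, 4.84 and 4.93 in late S, and 6.93, 8.30 and 7.17 in G2/M. All 3 late G1 arrays lay below, and all 3 G2/M arrays above, every other arrested array. Late G1 was lower than the mean of the other arrests by a difference of -3.74 ± 0.44 (13.3-fold lower, limma adjusted p = 0.000245), and G2/M was higher than the mean of its 4 other arrests by 3.26 ± 0.44 (9.60-fold, adjusted p = 0.00407). The step from late G1 to G2/M was 5.60 ± 0.55 (48.5-fold, adjusted p = 4.9e-05). With a pseudocount of 16 these differences were -1.84, 2.35 and 3.36, and all 3 passed. The G2/M call against the other arrests was lost without G2/M replicate 2 (2.85, adjusted p = 0.0869), and the late G1 call held whichever array was left out.

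In the cells that were not arrested, PLK1 was high. It lay at 6.94, 6.81 and 6.52 in CDT+DHT and at 6.11, 6.24 and 5.35 in CDT. The 2 groups did not overlap, as held in that direction for 7.81% of all genes. The difference of 0.86 ± 0.55 did not pass (limma adjusted p = 0.779). G2/M overlapped CDT+DHT (difference 0.71 ± 0.55, adjusted p = 0.575). Late G1 was lower than CDT+DHT by -4.89 ± 0.55 (29.7-fold lower, adjusted p = 0.000521), a call lost when only those groups entered the fit (adjusted p = 0.074). The PLK1 values in late G1 lay below the median of each array, so the folds depend on the pseudocount, and with 16 this difference was -2.71. Early G1, early S and late S arrays also lay below every CDT+DHT array, as held for 8.71%, 13.2% and 8.81% of all genes. The differences were -1.56 ± 0.55 (limma adjusted p = 0.546), -1.45 ± 0.61 (0.597) and -2.33 ± 0.55 (0.127), none of which passed. In order of mean, PLK1 ran G2/M, CDT+DHT, CDT, early S, early G1, late S and late G1, and among neighbours only CDT+DHT over CDT and late S over late G1 were without overlap.

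AURKA separated G2/M from every other group. Its 3 G2/M arrays were at 6.92, 6.80 and 7.05, against 5.30, 3.64 and 5.05 in early G1, 1.73, 2.92 and 1.78 in late G1, 4.50 and 4.54 in early S, 3.38, 4.75 and 4.68 in late S, 3.53, 4.73 and 2.50 in CDT+DHT, and 3.67, 5.21 and 4.22 in CDT. The lowest G2/M array thus exceeded the highest array of any other group by more than 1 log2 unit, and all late G1 arrays lay below the other arrested ones. G2/M was higher than the other arrests by 3.02 ± 0.50 (8.14-fold, limma adjusted p = 0.0404) and higher than CDT+DHT by 3.34 ± 0.63 (10.1-fold, adjusted p = 0.0301). Against CDT, the G2/M difference was 2.56 ± 0.63 (adjusted p = 0.162), which did not pass although the arrays did not overlap. Late G1 was lower than the other arrests by a difference of -2.95 ± 0.50 (7.74-fold lower, adjusted p = 0.00669), and G2/M was higher than late G1 by 4.78 ± 0.63 (27.5-fold, adjusted p = 0.0008).

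With a pseudocount of 16, AURKA differed by -1.41 in late G1 and by 2.08 in G2/M against the other arrests, and by 2.79 in G2/M against late G1. Some of its calls lay near the threshold. The call against CDT+DHT was lost without any 1 of the 6 arrays compared (differences 2.79 to 3.91, adjusted p up to 0.166), and that against the other arrests without G2/M replicate 1, 2 or 3, early S replicate 1 or 2, late S replicate 3, early G1 replicate 3, or late G1 replicate 1 or 3 (adjusted p 0.0595 to 0.435). The late G1 call was lost without late G1 replicate 1 or 3 (adjusted p = 0.0545 and 0.0737), and the call of G2/M against late G1 held without any 1 array.

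AURKB changed mainly at the low end. It lay at 1.77, 3.12 and 3.17 in late G1, against 3.40, 4.0 and 5.15 in early G1, 5.67 and 4.96 in early S, 3.70, 5.29 and 5.49 in late S, and 4.95, 5.99 and 5.42 in G2/M. The late G1 arrays were below all other arrested arrays, whereas G2/M overlapped early G1 and both S phase arrests. Late G1 was lower than the other arrests by a difference of -2.26 ± 0.48 (4.78-fold lower, limma adjusted p = 0.0323) and G2/M was higher than late G1 by 2.76 ± 0.61 (6.79-fold, adjusted p = 0.0469). Against the other arrests, the G2/M difference was 1.20 ± 0.48 (adjusted p = 0.88). Both AURKB calls were lost when any 1 late G1 array was left out (late G1 against other arrests, adjusted p 0.0769 to 0.227), the call in late G1 against the other arrests also without early S replicate 1, late S replicate 2 or 3, or G2/M replicate 2, and the call of G2/M against late G1 without any 1 G2/M array. Both were also lost when only the compared groups entered the fit (adjusted p = 0.0842 and 0.118). With a pseudocount of 16 the AURKB differences were -1.11 and 1.44.

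In late G1, 3 of the 10 kinases, PLK1, AURKA and AURKB, were lower than in the other arrests, averaged, where 0.69% of all genes were lower past the threshold. The same 3 genes were those whose late G1 arrays lay below every other arrested array, against 1.28% of all genes. All 10 differences were below 0 (median -2.13, against -0.09 over all genes), 7 of them with an unadjusted p below 0.05, against 10.5% of all genes. PBK missed narrowly, at -3.49 ± 0.82 (adjusted p = 0.0543), with levels of 2.41, 0.15 and 0.02 in late G1, and passed under quantile normalization, median centring, a filter on dim genes, eBayes with trend and robust, and array weights (adjusted p 0.00647 to 0.0426). NEK2, at 0.20, 2.29 and 0.03 in late G1, differed by -2.73 ± 0.91 (adjusted p = 0.229). The checkpoint kinases differed by -2.01 ± 0.82 (BUB1, adjusted p = 0.366), -1.88 ± 0.65 (BUB1B, 0.26) and -1.85 ± 0.90 (TTK, 0.484), and MASTL and PLK4 by -1.47 ± 0.72 and -1.25 ± 0.87 (0.488 and 0.689).

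Without the 4 arrays that stood apart, 2 of which were arrested ones with low kinase means, 8 of the 10 were lower in late G1, with 2.11% of all genes lower in that setting. The arrays left out came only from the end of the axis with low kinase means. BUB1 (-2.41, adjusted p = 0.0314), BUB1B (-2.25, 0.0209), NEK2 (-3.39, 0.0125), PBK (-3.93, 0.0021) and MASTL (-1.93, 0.0298) were then past the threshold beside PLK1, AURKA and AURKB, and PLK4 and TTK were not. Over the settings that left out 1 array, between 1 and 4 of the 10 passed. It was 1 without late G1 replicate 1 or replicate 3.

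The spindle checkpoint and centrosome kinases had the same ends but wider spread. BUB1B lay at 3.94, 2.22 and 3.45 in late G1, against 6.04, 4.28 and 5.16 in early G1, 4.85 and 6.10 in early S, 1.55, 5.11 and 4.45 in late S, and 5.12, 6.55 and 6.28 in G2/M. Late S replicate 1, one of the arrays that stood apart, lay below all 3 late G1 arrays, and the other arrested arrays lay above them. NEK2 had 2.64 and 4.64 in early S, and 0.03, 4.46 and 2.89 in late S, where the same replicate was at the floor of the scale. TTK had 0.02, 2.33 and 0.00 in late G1, against 4.99, 1.85 and 2.24 in early G1, 0.02 and 2.80 in early S, 0.06, 4.41 and 2.04 in late S, and 5.02, 2.50 and 4.28 in G2/M. Arrays near 0 were thus found for TTK in both S phase arrests as well as in late G1.

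MASTL and PLK4 were the members with the least separation. MASTL lay at 2.32, 3.28 and 2.74 in late G1, against 5.19, 2.27 and 5.08 in early G1, 3.84 and 4.97 in early S, 2.21, 5.25 and 4.35 in late S, and 5.30, 3.81 and 4.38 in G2/M. It was low in late G1 and in early G1 replicate 2 and late S replicate 1. PLK4 lay at 1.38, 0.02 and 2.33 in late G1, against 4.45, 0.28 and 3.03 in early G1, 1.63 and 3.44 in early S, and 1.84, 2.42 and 3.30 in late S. Each of these groups overlapped all the others for PLK4.

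**Figure D4:**
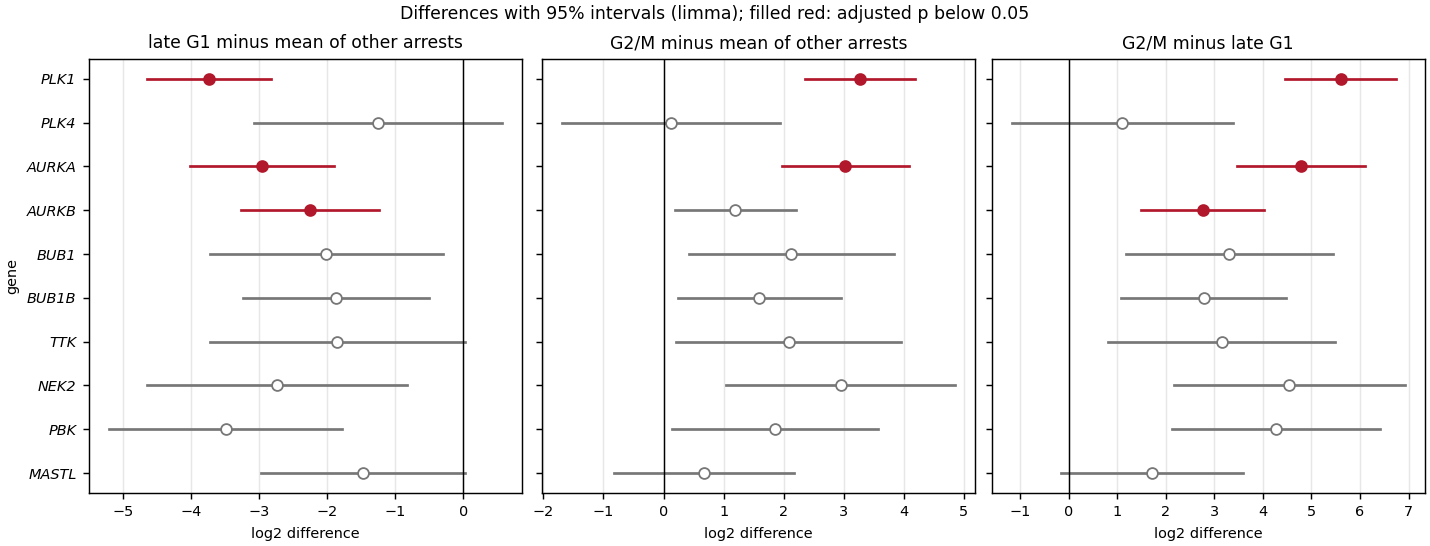
Log2 difference of each kinase gene with its 95% interval (limma, not adjusted for the number of genes) for late G1 and for G2/M, each against the 4 remaining arrests, and for G2/M against late G1; filled red points passed at an adjusted p of 0.05. All late G1 differences lie left of 0 and all G2/M differences right of it, PLK1 having the largest in each panel, while PLK4 intervals span 0 in all 3.

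In G2/M, PLK1 and AURKA were the 2 of the 10 kinases that were higher than in the other arrests, a comparison that shares its arrays with the one above and where 0.0217% of all genes (4 genes) were higher past the threshold. NEK2 joined them as the third kinase whose G2/M arrays (5.74, 5.17 and 5.24) all lay above every other arrested array, against 0.353% of all genes, but its difference of 2.95 ± 0.91 did not pass (adjusted p = 0.593). All 10 differences were above 0 (median 1.97, against 0.04 over all genes), 8 of them with an unadjusted p below 0.05, against 5% of all genes. BUB1, at 5.62, 4.77 and 4.94 in G2/M, differed by 2.13 ± 0.82, and BUB1B, at 5.12, 6.55 and 6.28, by 1.60 ± 0.65 (adjusted p = 0.833 and 0.883). PLK4 differed by 0.13 ± 0.87 (95% interval -1.70 to 1.95), with G2/M levels of 0.01, 2.93 and 4.10 that spanned nearly its whole range.

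G2/M against late G1 was the widest contrast: 3 of the 10 kinases passed, PLK1, AURKA and AURKB, with 0.451% of all genes higher past the threshold. For 9 of the 10, all but PLK4, the 3 G2/M arrays lay above the 3 late G1 arrays, which held for 11.7% of all genes, and the median difference was 3.23 (0.07 over all genes). NEK2 differed by 4.54 ± 1.14 (adjusted p = 0.0922) and PBK by 4.27 ± 1.02 (0.0746). Differences of 3.31 ± 1.02 in BUB1, 2.78 ± 0.81 in BUB1B, 3.15 ± 1.12 in TTK and 1.71 ± 0.90 in MASTL had adjusted p of 0.178 to 0.59. Without the 4 arrays, none of which belongs to either group, the differences were the same and 7 of the 10 passed, with 1.05% of all genes higher. The moderated F test for any difference among the 5 arrests was passed by PLK1 (adjusted p = 0.000365) and AURKA (0.0138), and by 0.255% of all genes. The F call of AURKA was lost without G2/M replicate 1 or 3 or late G1 replicate 1 or 3 (adjusted p 0.0558 to 0.0776).

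Both G1 arrests came from inhibitors of cyclin-dependent kinases. No kinase gene passed in late G1 against early G1 (limma, 0 of 10, 5 with an unadjusted p below 0.05), with 0% of all genes lower past the threshold and 7.1% with an unadjusted p below 0.05. All 10 differences were below 0, and the late G1 arrays lay below the early G1 arrays for PLK1, AURKA, AURKB and BUB1B, against 6.75% of all genes. PLK1 differed by -3.33 ± 0.55 (adjusted p = 0.0641), AURKA by -2.52 ± 0.63 (0.288), BUB1B by -1.95 ± 0.81 (0.618) and AURKB by -1.50 ± 0.61 (0.606). PLK1 passed under 5 alternatives that keep every array: quantile normalization, median centring, a filter on dim genes, eBayes with trend and robust, and array weights (adjusted p 0.00271 to 0.0315).

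Early G1 levels spread widely: BUB1 was at 4.77, 0.60 and 4.53, NEK2 at 4.79, 0.01 and 3.60 and PBK at 5.08, 1.00 and 3.79, the low value in each case being replicate 2. In G2/M against early G1, 0 of 10 passed (limma, 4 with an unadjusted p below 0.05), with 0% of all genes higher past the threshold and 3.67% with an unadjusted p below 0.05. PLK1, AURKA and NEK2 had G2/M arrays above all early G1 arrays, against 5.21% of all genes, with differences of 2.26 ± 0.55, 2.26 ± 0.63 and 2.58 ± 1.14 (adjusted p = 0.564, 0.816 and 1.00). With a pseudocount of 16, PLK1 (adjusted p = 0.0144) and AURKA (0.0186) passed.

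Against CDT+DHT, which shared the hormone, 1 kinase rose in G2/M, AURKA (above), where 0.271% of all genes were higher. The G2/M arrays lay above the CDT+DHT arrays for 7 of the 10, against 15.1% of all genes, the exceptions being PLK1, PLK4 and TTK. NEK2 differed by 4.37 ± 1.14 (adjusted p = 0.0868), BUB1B by 2.72 ± 0.81 (0.133) and PBK by 2.98 ± 1.02 (0.19). NEK2 and BUB1B passed with only these groups in the fit (0.0322 and 0.0422). Late G1 had 1 kinase lower, PLK1, where 0.489% of all genes were lower, and 2 whose arrays lay below CDT+DHT, PLK1 and AURKB (14% of all genes). Differences near 0 were found for BUB1B (-0.05 ± 0.81), NEK2 (-0.17 ± 1.14), PLK4 (0.07 ± 1.09) and MASTL (0.06 ± 0.90), with 95% intervals that reached at least 1.65 in either direction.

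Against CDT, with the same late G1 and G2/M arrays on the other side, late G1 had 1 kinase lower, PLK1 (-4.03 ± 0.55, adjusted p = 0.00319, 0.361 with only those groups in the fit, and a difference of -2.0 with a pseudocount of 16), where 0.0977% of all genes were lower. PLK1, AURKA, AURKB and NEK2 had late G1 arrays below all CDT arrays, against 10.1% of all genes. In G2/M, 0 of 10 passed against CDT (limma, 7 with an unadjusted p below 0.05), with 0.0489% of all genes higher past the threshold and 7.05% with an unadjusted p below 0.05. For 9 of the 10, all but PLK4, the G2/M arrays nevertheless lay above all CDT arrays, against 6.64% of all genes, and the median difference was 2.10 (-0.05 over all genes).

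DHT alone, in CDT medium, moved no kinase past the threshold: 0 of 10 passed in CDT+DHT against CDT, where 0% of all genes did, and 0 had an unadjusted p below 0.05, against 6.86% of all genes. The median difference was -0.175, against -0.10 over all genes. PLK1 alone of the 10 had CDT+DHT arrays above all CDT arrays, against 7.81% of all genes. NEK2 had the widest difference, at -2.08 ± 1.14 (adjusted p = 0.739), with 2.50, 0.43 and 0.10 in CDT+DHT against 2.33, 4.23 and 2.69 in CDT.

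The early G1 and both S phase arrests did not set the kinases apart by any call. Against the other arrests, 0 of 10 passed in early G1, early S and late S alike (limma, 0 with an unadjusted p below 0.05), where 0%, 0% and 0.0271% of all genes passed and 2.47%, 3.88% and 6.92% had an unadjusted p below 0.05. Against CDT, 0 of 10 passed in each, with 1, 1 and 2 at an unadjusted p below 0.05, where 0.00543%, 0.0326% and 0.0977% of all genes passed and 5.11%, 5.57% and 5.94% had such a p. Against CDT+DHT, 0 of 10 passed in each, with 2, 3 and 1 at an unadjusted p below 0.05, where 0%, 0.00543% and 0.0706% of all genes passed and 8.07%, 7.62% and 10.2% had such a p. The 2 early S arrays lay above all CDT+DHT arrays for 5 of the 10 and below them for 1, against 15.3% and 13.2% of all genes. They lay above all CDT arrays for 3 of the 10, against 11% of all genes, and below them for 0. The median difference against CDT+DHT was 1.11 in early G1, 1.15 in early S and 0.56 in late S, 8 of the 10 genes being above 0 in each, while PLK1 was below 0 in all 3. PLK1 in late S passed against CDT+DHT with a pseudocount of 16 (adjusted p = 0.0167), with eBayes trend and robust (0.0409) and with array weights (0.00501).

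Genes that work with these kinases were counted in the same fit. Of 15 partners and activators, 3 were lower in late G1 against the other arrests, 0 were higher, and 12 were below 0 (median -1.20), where 0.69% of all genes were lower and the median over all genes was -0.09. These were TPX2, which activates AURKA (-3.05 ± 0.51, adjusted p = 0.00514), BIRC5 (survivin), which holds AURKB in its complex (-3.09 ± 0.37, adjusted p = 0.000245), and STIL, with which PLK4 builds centrioles (-3.19 ± 0.59, adjusted p = 0.0116). In G2/M against late G1, the same 3 were higher, where 0.451% of all genes were higher. In G2/M against CDT+DHT TPX2 rose by 3.53 ± 0.63 (adjusted p = 0.0301), where 0.271% of all genes were higher. KNL1, the kinetochore scaffold that recruits BUB1, differed in late G1 by -2.56 ± 0.73 (adjusted p = 0.135).

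Of 13 regulators of transcription of such genes (median -0.95), 2 were lower in that comparison, with the same 0.69% of all genes as background, FOXM1 (-3.00 ± 0.42, adjusted p = 0.00134) and MYBL2, which encodes B-Myb (-3.06 ± 0.56, adjusted p = 0.0117), and 0 were higher. FOXM1 was also lower in late G1 than in CDT+DHT (-3.34 ± 0.52, adjusted p = 0.00562), where 0.489% of all genes were lower. E2F1, a driver of G1/S transcription, and LIN52, a MuvB subunit, differed by -1.78 ± 0.47 and -1.54 ± 0.49 (adjusted p = 0.0923 and 0.193). Of 10 other cell cycle kinases (median -1.37), 1 was lower there, again beside 0.69% of all genes, CIT, the citron kinase of cytokinesis (-2.37 ± 0.52, adjusted p = 0.0348), with all 10 below 0, CDK1 at -2.44 ± 0.64 (adjusted p = 0.0918). MKI67 and CCNB1, markers of proliferation and of G2, were lower too (-3.65 ± 0.61 and -1.78 ± 0.38, adjusted p = 0.00514 and 0.0323).

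Kinases of the same families and the phosphatases that oppose them gave no call. Of 11 other PLK, Aurora and NEK genes measured of 12 listed, 0 passed in late G1 against the other arrests (median -0.15), NEK3 and AURKC having the largest sizes at -1.72 ± 0.62 and -1.42 ± 0.64 (adjusted p = 0.282 and 0.434). Of 12 phosphatase genes, 0 passed (median -0.28), CDC14A having the largest size at -2.42 ± 0.64 (adjusted p = 0.0922). In G2/M against the other arrests 0 members of these 5 lists passed, where 0.0271% of all genes passed in either direction. TPX2 was nearest at 2.71 ± 0.51 (adjusted p = 0.0733).

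**Figure D5:**
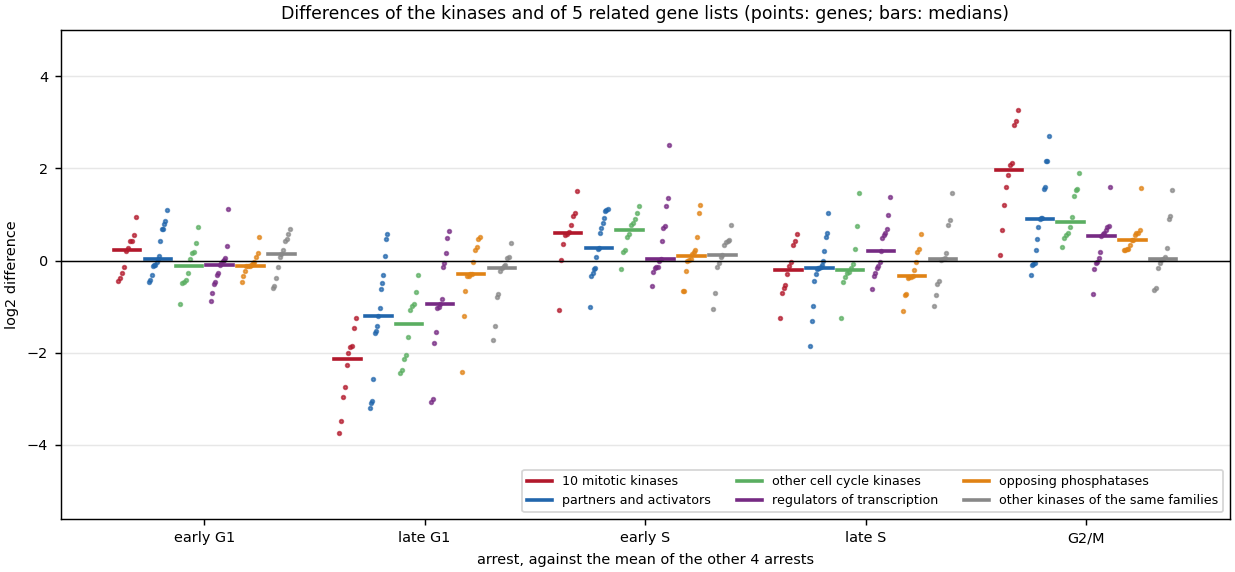
Log2 difference between each arrest and the 4 remaining ones for the 10 mitotic kinases and 5 related gene lists (points are genes, bars are medians). In late G1 the kinase median is -2.13, against -1.20 for partners and activators, -1.37 for other cell cycle kinases, -0.95 for regulators of transcription, -0.28 for opposing phosphatases and -0.15 for other kinases of the same families.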

How the data were processed

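RNA of 20 LNCaP samples was amplified and hybridised to Affymetrix arrays, per the labels' protocols. The deposited values are intensities, produced by the authors in Affymetrix Expression Console (version 1.1 in the submitters' processing notes). How probes were summarised and arrays normalized is not stated in the labels or headers. The scale was read as linear from the values (0 at or below 0, array medians 5.44 to 9.08), and log2(intensity + 1) was computed. Of 33297 features, 19460 had 1 gene symbol in the platform annotation, 1754 had several and 12083 were not listed; 19429 matched RefSeq by Entrez ID, used for names. The brightest cluster per gene gave 18417 genes.

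Tests used limma 3.58.1 under R 4.3.3 (lmFit, eBayes, 1 coefficient per group, two-sided, Benjamini-Hochberg over all genes), checked on simulated data. The 10 kinases are named, and up to 4 genes of each other list: those that passed, then those of largest size, read in late G1 against the other arrests (a reading chosen after values were seen). Members and lists were chosen with earlier results of these data known. No 2 arrays were identical. Deviations of same-numbered arrays correlated at -0.682 to 0.664 (over 0.1 in 17 of 57 pairs), and arrays were not treated as paired. With 2 or 3 arrays per group, this cannot exclude a batch shared by a replicate number. Alternatives were quantile normalization, median centring, a pseudocount of 16, dropping dim genes, averaging clusters, testing every cluster, eBayes trend and robust, array weights, a replicate block, only compared groups, and leaving out 4 arrays or each array.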

Additional observations from a re-analysis of the deposited data

How the results depend on the processing

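Of the 11 called kinase differences, 0 turned sign under any alternative. Of 179 that were not called, 53 turned sign in at least 1 alternative, none larger than 1.06 in size. PLK4 in G2/M against the other arrests was one, at -0.25 without the 4 arrays and between -0.75 and 1.29 when 1 array was left out. Counts of kinases that passed moved by over 1.5 times as follows. The share of all genes that passed can move with the setting too, as it did above without the 4 arrays. That share is not given beside the counts here, so a higher count need not be particular to the kinases. Fitted on the compared groups alone, there were 0 in late G1 against CDT and against CDT+DHT, and 3 in G2/M against CDT+DHT. A pseudocount of 16 gave 1 in G2/M against CDT, 1 in late S against CDT+DHT, 3 in G2/M against CDT+DHT and 2 in G2/M against early G1. eBayes with trend and robust gave 1 in late S and 2 in G2/M against CDT+DHT, 1 in late G1 against early G1 and 5 in G2/M against late G1. Array weights gave 2 in late G1, 1 in late S and 3 in G2/M against CDT+DHT, 5 in late G1 against the other arrests, 1 in late G1 against early G1, 6 in G2/M against late G1 and 4 in the F test. Quantile normalization, median centring and the filter on dim genes, which kept 7 of the 10 kinases, each gave 1 in late G1 against early G1. Smaller moves came from PBK, which made 4 in late G1 against the other arrests under those settings and under eBayes with trend and robust, 4 in G2/M against late G1 under the filter, and 3 in the F test without the 4 arrays. They also came from NEK2, which made 4 in G2/M against late G1 with a pseudocount of 16, and from AURKB, without which 2 were left in late G1 against the other arrests and in G2/M against late G1 when only the compared groups were fitted. Without the 4 arrays there were 8 in late G1 against the other arrests and 7 in G2/M against late G1. With the replicate block there were 0 in G2/M against CDT+DHT and 1 in G2/M against the other arrests. AURKA was lost in both (limma adjusted p = 0.0517 and 0.0698) and AURKB in G2/M against late G1 (0.054). Whether replicate numbers mark a shared batch is not known. When each array of the groups compared was left out in turn, and no other, counts ran from 0 to 0 in G2/M against CDT+DHT, 1 to 4 in late G1 against the other arrests, 0 to 2 in G2/M against the other arrests, 2 to 2 in G2/M against late G1 and 1 to 2 in the F test. The cause of these shifts was not tested. Groups of 2 or 3 arrays limit precision, and dim clusters (PLK4, TTK, NEK2) swing widely near 0 on this scale.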

Other observations

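Over the 20 arrays, the genes most like the mean of the 10 kinases, among 9201 other genes brighter than the median gene, were NDC80 (Pearson r = 0.95), an outer kinetochore gene, RACGAP1 (0.95), which acts in cytokinesis, SPAG5 (0.93), a spindle gene, CDKN3 (0.93), a phosphatase of cyclin-dependent kinases, HJURP (0.92), which loads the centromeric histone, PRPF3 (0.91), a splicing factor gene, PTTG1 (0.91), which encodes securin, and PRC1 (0.91), a microtubule bundler of the midzone. These values describe 20 arrays that share groups and the within-group axis named in the report.

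Set against the mean of the other 9 kinases, AURKA (r = 0.90) and NEK2 (0.88) followed the set most closely over the arrays. PBK (0.845), BUB1B (0.82), BUB1 (0.82), MASTL (0.71), TTK (0.69) and AURKB (0.69) came next, and PLK1 (0.56) and PLK4 (0.35) followed it least. In the order of the 7 group means, CDT+DHT was in place 2 for PLK1, in place 4 for AURKB, BUB1 and TTK, in place 6 for AURKA, BUB1B, NEK2, PBK and MASTL, and last for PLK4.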
